A study of Homo sapiens with 8 samples.

Results

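The genes described here are the cancer-testis antigen families on a whole-transcriptome expression array: MAGEA, MAGEB, MAGEC, CSAG, CTAG, XAGE, GAGE, PAGE, SPANX, CT45, CT47 and SSX. They were chosen by the start of the gene name printed for each probe, leaving out SSX2IP, which is not a member of the SSX family. This gave 66 genes on 90 probes, of 36337 gene names on 50599 probes in all. The letters CTAG also caught 7 CTAGE genes on 13 autosomal probes, which form a family of their own and are described separately, so that 59 genes on 77 probes belong to the X-linked families.

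RNA came from DLD1, a human colorectal cancer cell line. Cells were transfected for 48 h with a control siRNA (siCONT) or with either of a pair of siRNAs against UHRF1 (siUHRF1-1 and siUHRF1-2), and then received ethanol (mock) or 300 nM trichostatin A (TSA) for another 24 h. There were 4 groups of 2 one-colour arrays each: siCONT with mock, siUHRF1 with mock, siCONT with TSA, and siUHRF1 with TSA. In each UHRF1-depleted group the first array was siUHRF1-1 and the second siUHRF1-2, so the spread within these groups includes the difference between siRNAs.

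Cancer-testis genes are transcribed in male germ cells and in some tumors and are silent in most other adult tissues. Many lie in multi-copy families on the X chromosome, and DNA methylation at their promoters is known to take part in keeping them off. UHRF1 is needed for DNMT1 to copy DNA methylation marks onto the new strand after replication, and TSA inhibits histone deacetylases, which remove acetyl groups from histones. The comparisons ask which families came on when UHRF1 was depleted, when histone deacetylases were inhibited, or only when both were done.

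A level is the log2 of a probe's processed signal minus the log2 of the 75th percentile of its array, so that 0 is the brightness of that percentile. The lowest level well above background was between -3.79 and -3.37 on the 8 arrays, and values under it have no order. On each array, 43.3% to 48.0% of all probes passed that mark. The siCONT arrays of each agent differed by less than the noise between repeated spots, with a variance ratio of 0.25 under mock and 0.229 under TSA, whereas the ratios of the UHRF1-depleted groups were 42.5 and 41.5. A siCONT pair thus stands for 1 sample. The main fit over 8 arrays entered both arrays of each pair, so its p-values rest on more samples than there were and are too small. Beside each count a second fit is given in which the siCONT arrays were averaged to 1 sample per agent. All p-values measure only the spread between these samples. The slide held mock and TSA arrays in separate rows, so TSA and slide row cannot be told apart.

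UHRF1 itself had levels of 1.98 and 2.01 in siCONT with mock, 0.34 and -0.02 after depletion, 1.04 and 1.01 in siCONT with TSA, and -1.56 and -2.14 with both. The depleted groups did not overlap their siCONT groups. The limma test gave a 3.56-fold lower level under mock (adjusted p = 0.012, or 0.249 with siCONT averaged) and a 7.33-fold lower level under TSA (adjusted p = 0.00237). Of 12 colon epithelium marker genes, 12 were above background in every group, and none of 9 germ cell marker probes was above background in any group. Sertoli and Leydig cell markers had 2 of 6 probes above background in every group (AMH and CYP17A1), with a summed linear signal, relative to the 75th percentile, of 0.713 to 1.21 over the arrays. Fibroblast markers had 0, 0, 1 and 1 of 6 probes (COL1A1), and endothelial markers 0, 2, 2 and 2 of 7 (VWF and CDH5), in the order siCONT with mock, siUHRF1 with mock, siCONT with TSA and both. Their summed signals spanned 0.101 to 1.30 and 0.275 to 1.90, and their part in the results was not tested.

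The promoters printed here include those of SPANX genes, which came on with TSA alone or with both treatments. Also printed is that of MAGEA6, for which 1 probe came on with UHRF1 depletion and the other was on in every group. Those of MAGEA9 and XAGE1A, which came on with UHRF1 depletion, and of GAGE13, whose probe was on throughout, complete the set. Each is the RefSeq window of 300 bases around a transcription start (build GRCh38.p14), read 5′ to 3′ along the gene, with CG pairs in capitals. Of the 66 gene names, 43 had at least 1 window.
SPANXA1, chrX:141584689-141584988: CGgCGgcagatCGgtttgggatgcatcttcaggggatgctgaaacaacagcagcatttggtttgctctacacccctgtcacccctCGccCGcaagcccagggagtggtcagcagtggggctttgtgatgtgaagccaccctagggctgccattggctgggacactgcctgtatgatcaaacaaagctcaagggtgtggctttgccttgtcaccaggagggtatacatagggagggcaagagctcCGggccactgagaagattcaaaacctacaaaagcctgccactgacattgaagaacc
SPANXB1, chrX:141002344-141002643: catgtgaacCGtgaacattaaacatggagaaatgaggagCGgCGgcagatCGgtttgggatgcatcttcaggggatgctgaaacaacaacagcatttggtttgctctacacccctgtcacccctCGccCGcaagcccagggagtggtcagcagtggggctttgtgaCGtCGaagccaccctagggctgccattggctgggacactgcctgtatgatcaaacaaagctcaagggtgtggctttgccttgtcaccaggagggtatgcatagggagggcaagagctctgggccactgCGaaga
SPANXN3, chrX:143517426-143517725: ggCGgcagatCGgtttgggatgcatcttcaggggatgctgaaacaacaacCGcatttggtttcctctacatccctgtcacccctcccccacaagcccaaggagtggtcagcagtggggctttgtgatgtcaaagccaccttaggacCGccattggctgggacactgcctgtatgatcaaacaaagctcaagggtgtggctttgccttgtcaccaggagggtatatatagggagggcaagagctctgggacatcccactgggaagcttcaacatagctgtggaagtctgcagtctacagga
MAGEA6, chrX:152769640-152769939: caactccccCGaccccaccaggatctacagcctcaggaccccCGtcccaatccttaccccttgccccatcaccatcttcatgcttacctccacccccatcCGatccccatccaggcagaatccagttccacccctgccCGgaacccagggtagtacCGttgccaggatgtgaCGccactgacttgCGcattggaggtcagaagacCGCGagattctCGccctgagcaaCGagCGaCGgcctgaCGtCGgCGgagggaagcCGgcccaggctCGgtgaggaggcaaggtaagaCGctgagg
MAGEA9, chrX:149781680-149781979: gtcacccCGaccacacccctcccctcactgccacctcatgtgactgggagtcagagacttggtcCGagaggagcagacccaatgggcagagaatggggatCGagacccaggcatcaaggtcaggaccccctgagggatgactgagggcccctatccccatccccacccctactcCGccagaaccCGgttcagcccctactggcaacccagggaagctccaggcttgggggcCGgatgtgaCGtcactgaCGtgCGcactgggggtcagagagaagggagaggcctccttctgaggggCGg
XAGE1A, chrX:52495627-52495926: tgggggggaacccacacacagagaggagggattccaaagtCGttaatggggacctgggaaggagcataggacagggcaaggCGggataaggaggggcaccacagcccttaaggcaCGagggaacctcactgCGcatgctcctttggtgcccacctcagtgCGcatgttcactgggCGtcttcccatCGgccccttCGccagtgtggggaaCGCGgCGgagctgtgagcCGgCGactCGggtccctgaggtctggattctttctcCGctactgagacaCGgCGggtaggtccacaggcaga
GAGE13, chrX:49331332-49331631: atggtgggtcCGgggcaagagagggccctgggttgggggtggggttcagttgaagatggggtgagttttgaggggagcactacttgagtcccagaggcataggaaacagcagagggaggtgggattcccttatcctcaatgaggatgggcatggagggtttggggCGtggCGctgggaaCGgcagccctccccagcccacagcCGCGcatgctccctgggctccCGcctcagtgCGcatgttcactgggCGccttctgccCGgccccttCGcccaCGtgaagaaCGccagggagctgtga

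Most members were dark in untreated DLD1 cells, and the number that could be detected grew most when both treatments were combined. Of the 77 X-linked probes, 9 were well above background on both siCONT mock arrays (11.69%), 16 after UHRF1 depletion (20.78%), 10 with TSA (12.99%) and 32 with both (41.56%). Over all 50599 probes of the array the same shares were 41.81%, 43.17%, 44.65% and 45.33%. On both arrays of the combination and of no other group, 14 X-linked probes were above background, where 831 of all 50599 probes were. Some of the 14 were also above background on 1 array of another group, such as PAGE4 in siCONT with TSA and MAGEA12 after depletion. In all 4 groups 7 X-linked probes were above background, where 19907 of all probes were. In bulk RNA, a change in the number of expressing cells and a change in RNA per cell cannot be told apart.

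**Figure D1:**
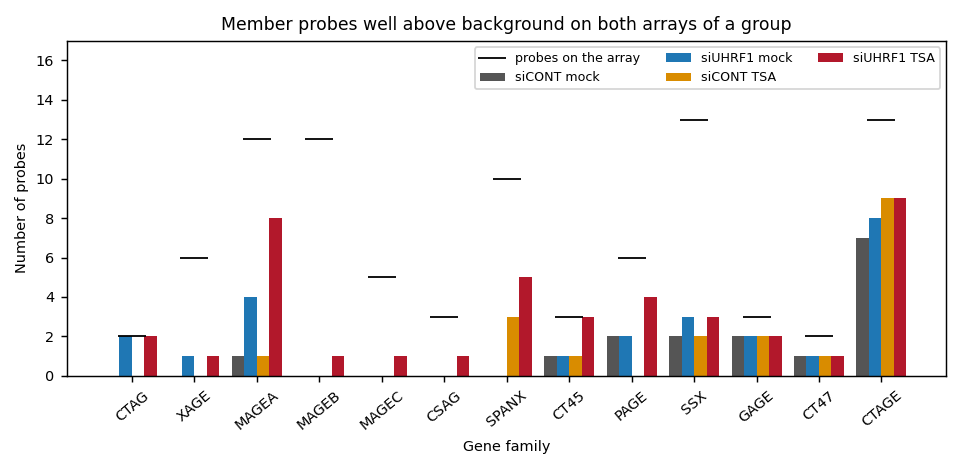
Number of probes of each family well above background on both arrays of the group, for the 4 groups of DLD1 cells; black lines mark how many probes the family has on the array. MAGEA went from 1 of 12 probes in siCONT with mock to 8 of 12 with UHRF1 depletion plus TSA, SPANX from 0 of 10 to 5, and GAGE stayed at 2 of 3 in every group.

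A probe was tested if 1 of the groups compared had both of its arrays well above background, and called at a Benjamini-Hochberg adjusted p under 0.05 in limma, over all probes tested, with a change of at least 2-fold. A member that was tested only through the group in which it was bright had to differ, so the counts are descriptions. UHRF1 depletion under mock gave 6 members higher and 0 lower of 24 tested, where 3.12% of all tested probes were called higher (1 of 24 and 0.0625% with siCONT averaged). TSA in siCONT cells gave 5 higher and 1 lower of 21, against 10.4% higher and 8.21% lower over all probes (1 higher and 1.3% with siCONT averaged). The combination, set against siCONT with mock, gave 24 higher and 0 lower of 41, against 14.6% higher and 11.0% lower (18 higher and 9.74% with siCONT averaged). All of these 24 were X-linked. These comparisons share control arrays.

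UHRF1 depletion under TSA gave 22 members higher and 1 lower of 41, against 5.37% of all probes called higher (7 and 0.658% with siCONT averaged). TSA in UHRF1-depleted cells gave 15 higher and 2 lower of 42, against 11.7% higher and 8.99% lower (14 and 10.0% higher with siCONT averaged).

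**Figure D2:**
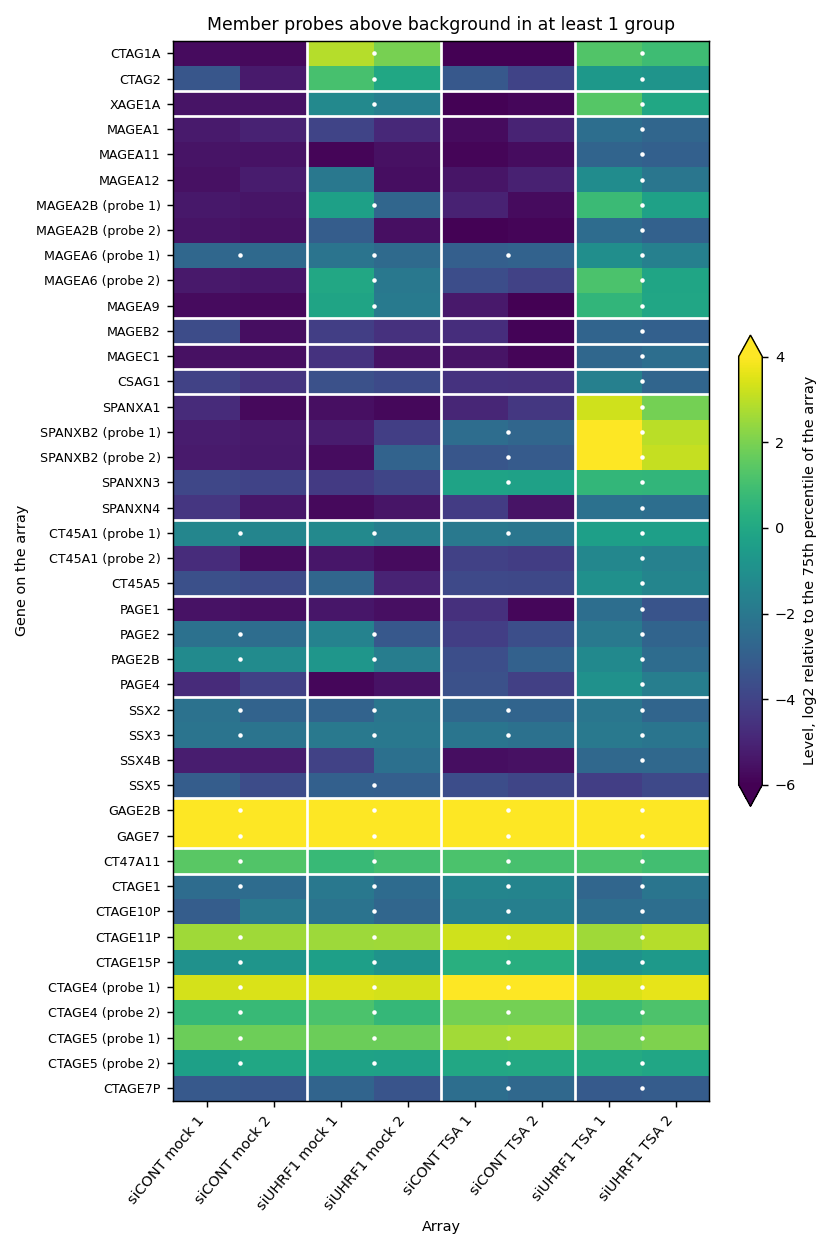
Levels (log2 relative to the 75th percentile of each array) of the member probes detected (well above background) on both arrays of some group, by family, on the 8 arrays; white dots mark groups in which both arrays were above background, and colours are capped at -6 and 4. CTAG, XAGE1A and part of MAGEA carried dots from UHRF1 depletion onward, SPANXN3 and SPANXB2 with TSA, and 14 X-linked probes with both treatments alone.

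The CTAG genes encode NY-ESO-1 and LAGE-1, antigens known from immunotherapy trials, and were the clearest response to UHRF1 loss alone. CTAG1A, whose probe also matches CTAG1B, had levels of -5.70 and -5.75 in siCONT with mock, 2.89 and 1.93 after UHRF1 depletion, -6.12 and -6.01 in siCONT with TSA, and 1.28 and 0.91 with both. Both siCONT groups were below background and every UHRF1-depleted array was above it. Against siCONT with mock, CTAG1A was at least 56.1-fold higher after depletion alone (adjusted p = 0.002, or 0.0427 with siCONT averaged) and at least 22.6-fold higher with both (adjusted p = 9.9e-05). It was the single member called after depletion alone with siCONT averaged.

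Adding TSA to UHRF1-depleted cells lowered CTAG1A 2.49-fold (log2 change -1.31 ± 0.31 SE, adjusted p = 0.0187, or 0.0695 with siCONT averaged). CTAG2, whose probe also matches CTAG1A and CTAG1B and so cannot be told apart from them, had levels of -3.34 and -5.26 in siCONT with mock, 1.07 and -0.03 after depletion, -3.24 and -4.00 in siCONT with TSA, and -0.67 and -0.83 with both. It was at least 14.9-fold higher after depletion (adjusted p = 0.0183, or 0.0813 with siCONT averaged) and at least 6.18-fold higher with both. The change of CTAG2 on adding TSA, -1.27 ± 0.68 (SE), did not pass the test (adjusted p = 0.185).

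XAGE1A, a member of the XAGE family whose probe also matches XAGE1B, came on with depletion and rose again with TSA. Its levels were -5.46 and -5.53 in siCONT with mock, -1.29 and -1.68 after depletion, -5.92 and -5.83 in siCONT with TSA, and 1.36 and -0.03 with both. The groups followed each other without overlap except for the pair of dark siCONT groups. The rise was at least 3.76-fold with depletion alone (adjusted p = 0.0105, or 0.155 with siCONT averaged) and at least 16.7-fold with both (adjusted p = 0.000243), and TSA raised depleted cells 4.44-fold (log2 change 2.15 ± 0.42 SE, adjusted p = 0.00976, or 0.0392 with siCONT averaged). The 60-base probe of XAGE1A, at chrX:52241141-52241200 of hg19, is given because the other 5 XAGE probes were at background in every group.
XAGE1A probe: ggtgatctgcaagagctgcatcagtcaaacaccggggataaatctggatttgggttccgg

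The MAGEA genes encode type I MAGE proteins, which bind and modulate ubiquitin ligases. In this family MAGEA9 and 1 probe each of MAGEA2B and MAGEA6 were called higher after UHRF1 depletion alone. MAGEA9, whose probe also matches MAGEA9B, had levels of -5.69 and -5.75 in siCONT with mock, -0.18 and -1.89 after depletion, -5.30 and -6.01 in siCONT with TSA, and 0.58 and -0.08 with both. It was at least 5.15-fold higher after depletion (adjusted p = 0.0121, or 0.175 with siCONT averaged) and at least 12.5-fold higher with both (adjusted p = 0.000627). The further change with TSA was 1.28 ± 0.57 (SE, log2), which missed the threshold (adjusted p = 0.124) but passed it with a replicate block (adjusted p = 0.0493).

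MAGEA2B, which shares its probe with MAGEA2, had levels of -5.36 and -5.42 in siCONT with mock, -0.32 and -2.69 after depletion, -5.03 and -5.69 in siCONT with TSA, and 0.82 and -0.28 with both. It was at least 3.72-fold higher after depletion (adjusted p = 0.0382, or 0.366 with siCONT averaged) and at least 12.7-fold higher with both (adjusted p = 0.00214). Its second probe was above background on both arrays with the combination alone, at -2.48 and -2.90.

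The probes of MAGEA6, which also match MAGEA3, disagreed. The brighter one was on in every group, at -2.66 and -2.58 in siCONT with mock, -2.14 and -2.55 after depletion, -2.97 and -2.85 in siCONT with TSA, and -1.07 and -1.65 with both, and rose 2.39-fold with both (adjusted p = 0.0063, or 0.081 with siCONT averaged). The second was dark in siCONT with mock, at -5.32 and -5.41, stood at -3.65 and -4.01 in siCONT with TSA, and reached -0.02 and -2.01 after depletion and 1.18 and -0.14 with both. It was at least 5.20-fold higher after depletion (adjusted p = 0.024, or 0.287 with siCONT averaged). With both it was at least 15.1-fold higher (adjusted p = 0.00128, or 0.0194 with siCONT averaged). Which transcripts each probe reads was not tested.

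**Figure D3:**
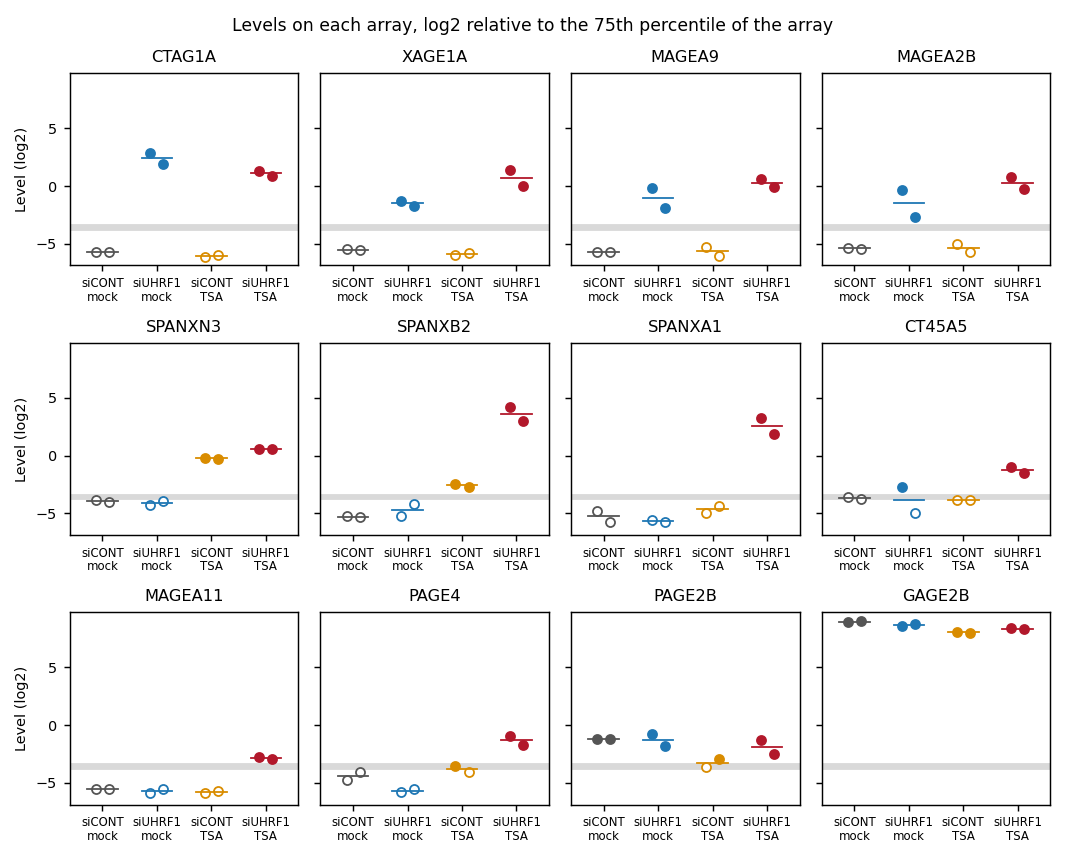
Levels on each array (log2, with the array's 75th percentile at 0) of 12 members in the 4 groups of 2 arrays; filled points were well above background, open points were not, bars are group means, and the grey band is the range over arrays of the lowest level well above background. CTAG1A, XAGE1A, MAGEA9 and MAGEA2B lay above the band after UHRF1 depletion alone, SPANXN3 and SPANXB2 with TSA alone, SPANXA1, MAGEA11 and PAGE4 on both arrays with both treatments only, and GAGE2B on every array.

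The SPANX genes encode proteins of the sperm nucleus and held both X-linked members called higher with TSA alone. SPANXN3 had levels of -3.88 and -3.99 in siCONT with mock, -4.29 and -3.92 after UHRF1 depletion, -0.20 and -0.28 in siCONT with TSA, and 0.61 and 0.57 with both. It was at least 8.92-fold higher with TSA alone (adjusted p = 0.000191, or 0.0356 with siCONT averaged), the single member called for TSA in that fit. With both it was at least 15.9-fold higher than in siCONT with mock (adjusted p = 5.26e-05), and depletion under TSA raised it 1.78-fold (adjusted p = 0.0196, or 0.315 with siCONT averaged), under the 2-fold minimum.

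SPANXB2, which shares its probes with SPANXB1, was detected with TSA alone and rose far more with both treatments. Its levels were -5.25 and -5.33 in siCONT with mock, -5.24 and -4.15 after depletion, -2.43 and -2.68 in siCONT with TSA, and 4.21 and 2.97 with both. TSA alone gave a level at least 1.79-fold higher (adjusted p = 0.00774, or 0.148 with siCONT averaged), and both gave one at least 127-fold higher (adjusted p = 0.000143, or 0.00562 with siCONT averaged). Under TSA, depletion raised it 70.9-fold (adjusted p = 0.00249). Its second probe stood at -5.68 and -2.81 after depletion alone, above background with siUHRF1-2 and not with siUHRF1-1. With TSA alone this probe stood at -3.32 and -3.14, where it was not called (adjusted p = 0.112), and with both at 4.38 and 3.11. The brighter probes of SPANXB2 (chrX:140097760-140097819) and SPANXN3 (chrX:142596832-142596891, both hg19) are printed because these genes differ in what TSA alone did.
SPANXB2 probe: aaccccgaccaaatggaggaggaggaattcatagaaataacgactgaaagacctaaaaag
SPANXN3 probe: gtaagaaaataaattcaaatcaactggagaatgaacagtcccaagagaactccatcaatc

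SPANXA1, whose probe also matches SPANXA2 and SPANXC, was off in 3 groups and bright with both treatments. Its levels were -4.79 and -5.74 in siCONT with mock, -5.61 and -5.77 after depletion, -4.93 and -4.39 in siCONT with TSA, and 3.28 and 1.90 with both. The combination exceeded siCONT with mock at least 63.3-fold (adjusted p = 0.000212, or 0.00534 with siCONT averaged), siCONT with TSA at least 80.2-fold (adjusted p = 0.00183) and depletion alone at least 72.9-fold (adjusted p = 0.000233). SPANXN4 followed the same order at a lower level, with -2.26 and -2.38 under both treatments and no other group above background (at least 2.11-fold, adjusted p = 0.0064, or 0.00948 with siCONT averaged). The other SPANX probes were at background on at least 1 array of every group.

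CT45 genes are a cluster of near-identical X-linked copies. The brighter CT45A1 probe, which also matches CT45A3 and CT45A6, was on throughout, at -1.40 and -1.43 in siCONT with mock, -1.30 and -1.73 after depletion, -1.94 and -2.08 in siCONT with TSA, and -0.36 and -0.37 with both. The combination was 2.08-fold above siCONT with mock (log2 change 1.05 ± 0.16 SE, adjusted p = 0.00333, or 0.075 with siCONT averaged). It was 3.14-fold above siCONT with TSA (limma adjusted p = 0.00449, or 0.11 with siCONT averaged). The second CT45A1 probe was above background with both treatments alone, at -1.36 and -1.59 (at least 3.78-fold, adjusted p = 0.000415, or 0.00581 with siCONT averaged). CT45A5 was at -3.54 and -3.72, -2.70 and -5.00, -3.80 and -3.82, and -1.0 and -1.47 in the same order of groups (at least 4.49-fold with both, adjusted p = 0.0292, or 0.145 with siCONT averaged). The 3 CT45 probes tested were all called higher with the combination against each of the other groups, where 3.3% of all tested probes were. With siCONT averaged only the second CT45A1 probe was, against 0.542% of all probes. After depletion alone, CT45A5 was above background with siUHRF1-1 and not with siUHRF1-2.

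Other MAGE members were detected on both arrays with the combination alone. MAGEA1 had levels of -5.29 and -5.04 in siCONT with mock, -3.96 and -4.84 after depletion, -5.72 and -4.99 in siCONT with TSA, and -2.38 and -2.70 with both (at least 1.81-fold, adjusted p = 0.0021, or 0.021 with siCONT averaged). MAGEA11, a coregulator of the androgen receptor, had levels of -5.49 and -5.52 in siCONT with mock, -5.85 and -5.56 after depletion, -5.86 and -5.67 in siCONT with TSA, and -2.77 and -2.92 with both. It was at least 1.47-fold higher with both (adjusted p = 0.000149, or 0.00899 with siCONT averaged), a small bound because it rose only a little above background.

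MAGEA12 reached -1.12 and -2.07 with both treatments and -2.0 and -5.62 after depletion alone, so that siUHRF1-1 but not siUHRF1-2 raised it above background (at least 3.48-fold with both, adjusted p = 0.0298, or 0.141 with siCONT averaged). MAGEC1 was at -2.65 and -2.39 with both and at or below -4.53 on the other 6 arrays (at least 1.84-fold, adjusted p = 0.000945, or 0.0171 with siCONT averaged). Its second probe was at background on all 8 arrays, at -5.60 and -5.75 with both. MAGEB2 stood at -2.76 and -2.95 with both and at -3.69 and -5.64 in siCONT with mock, which did not pass the test (adjusted p = 0.0698) but passed with siCONT averaged (adjusted p = 0.0236) and with a replicate block (adjusted p = 0.0227). It was the single MAGEB probe of 12 that was detected on both arrays of a group.

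CSAG1, a neighbor of MAGEA12 on the X chromosome, had levels of -4.01 and -4.44 in siCONT with mock, -3.53 and -3.77 after depletion, -4.53 and -4.58 in siCONT with TSA, and -1.64 and -2.74 with both (at least 2.31-fold, adjusted p = 0.00538, or 0.052 with siCONT averaged). The promoter windows of CSAG1 (chrX:152733672-152733971) and MAGEA12 (chrX:152733507-152733806) overlap and the genes are read in opposite directions. PAGE1 stood at -2.39 and -3.40 with both and at -4.61 or below elsewhere (at least 1.41-fold, adjusted p = 0.00555, or 0.0245 with siCONT averaged). PAGE4, which encodes a disordered stress-response protein of the prostate and testis, was at -4.78 and -4.07, -5.82 and -5.51, -3.52 and -4.09, and -0.93 and -1.71 in the order used above (at least 4.21-fold with both, adjusted p = 0.0013, or 0.0126 with siCONT averaged).

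SSX genes encode transcriptional repressors known from the fusion of synovial sarcoma. Of their 7 genes, SSX2, SSX3, SSX4B and SSX5 were above background on both arrays of some group, and SSX1, SSX7 and SSX8 were not. Of 13 probes, 3 were above background on both arrays with the combination. The single one called higher was of SSX4B, where 14.6% of all tested probes were called higher. It had levels of -5.19 and -5.26 in siCONT with mock, -4.04 and -2.30 after depletion, -5.63 and -5.53 in siCONT with TSA, and -2.63 and -2.64 with both (at least 1.69-fold, adjusted p = 0.00794, or 0.0679 with siCONT averaged). Another SSX4B probe was above background with siUHRF1-2 under mock, at -2.87, and below it with both, at -3.50 and -4.45. The remaining SSX4B probe was at background on all 8 arrays. SSX5 was above background on both arrays after depletion alone, at -2.94 and -2.98, and in no other group. In siCONT with mock it was at -3.03 and -3.66, and depletion did not pass the test (log2 change 0.39 ± 0.24 SE, adjusted p = 0.321). With both it was at -4.14 and -3.78, at least 1.5-fold lower than after depletion alone (adjusted p = 0.0201). SSX3, by a probe that also matches SSX2 and SSX2B, lay between -2.25 and -1.95 on all 8 arrays and was called in no comparison, and its other probe was at background throughout. A probe of SSX2 and SSX2B lay between -2.83 and -2.06 and was likewise not called.

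Of 41 members tested in all 3 comparisons, 14 probes of 12 genes were called higher with the combination than with siCONT and mock, than with TSA alone and than with depletion alone, where 3.3% of all probes tested were: CSAG1, both CT45A1 probes, CT45A5, MAGEA1, MAGEA11, MAGEC1, PAGE1, PAGE4, SPANXA1, both SPANXB2 probes, SPANXN4 and XAGE1A. With siCONT averaged 6 were, against 0.542% of all probes: the dimmer CT45A1 probe, MAGEA11, SPANXA1, the brighter SPANXB2 probe, SPANXN4 and XAGE1A. The interaction, which tests whether the combination exceeds the sum of both single log2 changes, was called higher for 7 of 42 members, against 2.8% of all probes. These were both CT45A1 probes, MAGEA11, MAGEC1, PAGE4, SPANXA1 and the brighter SPANXB2 probe, with log2 values from 1.75 ± 0.23 (SE) for CT45A1 to 7.67 ± 0.73 (SE) for SPANXA1. With siCONT averaged no interaction was called by limma (0.0% of all probes). In that fit 14 members had an unadjusted p under 0.05 and at least 2-fold. The share of all probes at that threshold is not given here, so this count is only a description. Most single changes in these sums involve probes below background, so the sizes are not bounds.

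GAGE genes encode small germ cell antigens, and 2 of their 3 probes were on in every group. GAGE1 was at background on all 8 arrays, between -5.68 and -4.99. GAGE2B, whose probe also matches GAGE10 and GAGE13, had levels of 8.93 and 9.02 in siCONT with mock, 8.56 and 8.75 after depletion, 8.09 and 8.02 in siCONT with TSA, and 8.43 and 8.31 with both. GAGE7, which shares its probe with GAGE12F and GAGE10, had 7.59 and 7.68, 7.68 and 7.30, 6.74 and 6.80, and 6.95 and 6.88. TSA alone gave 1.90-fold and 1.82-fold lower levels (adjusted p = 0.0032 and 0.00745, or 0.193 and 0.241 with siCONT averaged), both under the 2-fold minimum, and quantile, median and detected-probe scaling kept that direction. PAGE2B was on at -1.22 and -1.17 in siCONT with mock, -0.73 and -1.76 after depletion and -1.26 and -2.47 with both, and dropped to -3.59 and -2.91 with TSA alone (4.15-fold lower, adjusted p = 0.0218, or 0.22 with siCONT averaged). Its other probe was at background on all 8 arrays. CT47A11 was on in every group by 1 probe, between 0.75 and 1.44, and was called in no comparison. The other CT47A11 probe was dark except at -2.11 on 1 array with both treatments.

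The 7 CTAGE genes, named for an antigen of cutaneous T cell lymphoma, are autosomal. Of their 13 probes 7 were above background in siCONT with mock and 9 with both. The combination called 0 of 9 tested, where 14.6% of all probes were called higher. TSA alone called 3 of 9 higher, CTAGE1, CTAGE15P and 1 of 2 CTAGE4 probes (0 of 9 with siCONT averaged). Over all probes, TSA alone called 10.4% higher, or 1.3% with siCONT averaged. The called CTAGE15P and CTAGE4 probes both match CTAGE15 and CTAGE6, so they are not independent. The called CTAGE1 probe also matches the gene MIA2. The other CTAGE1 probes, for which no other gene was matched, were at background on every array. Which of these genes the called CTAGE1 probe reads was not tested. The brighter CTAGE4 probe was at 3.35 and 3.45 in siCONT with mock and 4.16 and 4.17 with TSA, a change of 0.77 ± 0.12 (SE) under the 2-fold minimum. CTAGE5 and CTAGE11P changed by 0.89 ± 0.12 and 0.68 ± 0.14 (SE) with TSA alone, and by 0.19 and 0.15 with both.

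Beside the families, lists of related genes were counted. Of 13 probes of broadly expressed MAGE genes such as MAGED1 and MAGED2, 6 were above background in every group and 0 were called by limma in any comparison, nor did any rise 2-fold at an unadjusted p under 0.05. Across the comparisons 2.8% to 14.6% of all tested probes were called higher, so 0 of 6 cannot be told apart from the whole array. Among 26 probes of other X-linked cancer-testis genes, 1, 2, 2 and 7 were above background in the 4 groups. The combination called 7 of 7 tested higher, against 14.6% of all probes (7 and 9.74% with siCONT averaged). Most of these 7 were tested only through the combination, where they were bright, so the count is a description. TKTL1, a transketolase-like gene, had levels of -3.55 and -4.52 in siCONT with mock, 0.62 and -0.27 after depletion, -3.41 and -4.24 in siCONT with TSA, and 2.39 and 3.45 with both. PLAC1, a placental antigen, had -5.34 and -5.44, -3.75 and -4.22, -0.50 and -0.27, and 1.42 and 0.92. These genes are named after their values were seen. Among 80 autosomal cancer-testis probes the combination called 15 higher and 9 lower of 37 tested (12 and 4 with siCONT averaged). The shares over all probes were 14.6% higher and 11.0% lower.

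After depletion alone, siUHRF1-1 gave the higher level in 13 of 16 X-linked probes above background on both arrays, with a median difference of 0.42 (range -0.77 to 2.37, log2), and 8 more were above background on 1 array. With TSA it gave the higher level in 31 of 32, with a median of 0.45 (range -0.26 to 1.39). Over 19907 probes above background on all 8 arrays, this difference had a standard deviation of 0.49 under mock and 0.43 with TSA. Its median over all probes was not taken, so a shift of members cannot be told from one of the whole array. Members at background on at least 1 array of every group were 48 probes, and 30 of the 66 genes had no probe above background on both arrays of a group. On single arrays, MAGEA4 reached -2.46 with siUHRF1-2 alone and -3.15 with siUHRF1-1 plus TSA, and MAGEA8 reached -2.54 with siUHRF1-1 plus TSA.

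Promoters of the families differed in CG content. The number of CG pairs in the 300-base window had a median of 14 over 35116 RefSeq promoters of 27305 genes. MAGEA windows held 9 to 21 (median 14), XAGE 5 to 17, GAGE 11 to 13, PAGE 4 to 13, CSAG 16 to 20, SSX 5 to 12 and SPANX 1 to 9 (median 5). MAGEB windows held 1 to 21 (median 8), MAGEC 5 to 14, CTAGE 16 to 19 and the CT45A1 window 8. No window matched a CTAG or CT47 gene or MAGEA1. Among the sequences printed above, SPANXN3 held 4, SPANXA1 6 and SPANXB1 9, MAGEA9 10, GAGE13 13, XAGE1A 17 and MAGEA6 19. The SPANXN3 window, of the gene that TSA alone raised, and the SPANXA1 window, of a gene dark with TSA alone, were identical at 267 of 302 aligned bases (88.41%), and SPANXA1 and SPANXB1 at 97.7% of 261.

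Short sequences shared within a family were read from these windows and counted on both strands, so they are descriptions. GGATGTG occurred in all 16 MAGEA windows, against 4.29% of all promoters. These windows belong to 10 genes, 5 of them to MAGEA4, so they are not independent. The same letters were in 2 of 2 CSAG, 2 of 3 MAGEC, 3 of 5 CTAGE, 3 of 8 SSX and 3 of 11 MAGEB windows. The letters TGCGCATG occurred in 5 of 5 GAGE, 5 of 7 PAGE and 7 of 10 XAGE windows, against 2.18%. ATAGGGAGG occurred in 7 of 8 SPANX windows, against 0.285%. XAGE1A, which was dark in siCONT, and GAGE13, whose probe was on in every group, both hold TGCGCATG, and their windows were identical at 66.37% of 226 aligned bases. MAGEA6 and MAGEA3 had the same 300 bases.

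**Figure D4:**
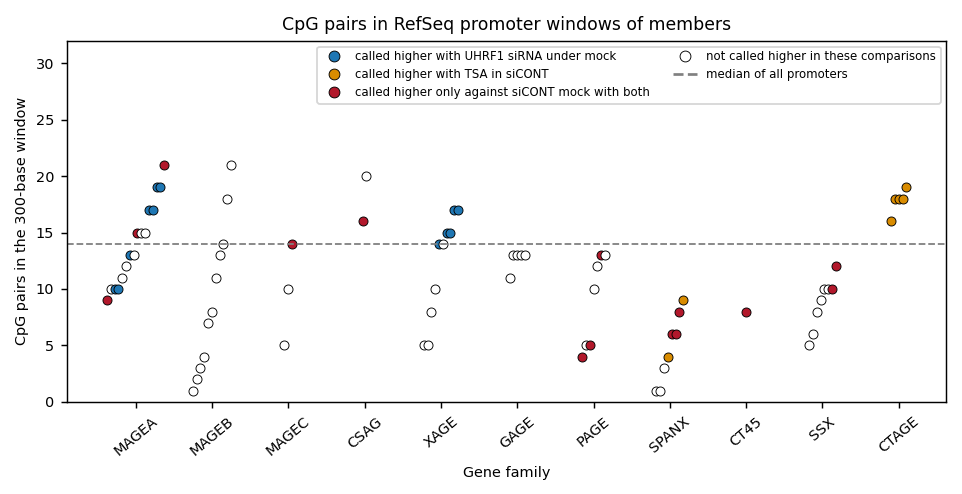
Number of CG pairs in the 300-base promoter window of member genes, by family. Colours give the comparison in which any probe of the gene was called higher. The line is the median over all RefSeq promoters, 14. SPANX windows held 1 to 9 CG pairs and MAGEA windows 9 to 21.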

How the data were processed

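The authors hybridised Cy3-labelled total RNA of DLD1 cells to Agilent one-colour arrays, 8 arrays on 1 slide. They extracted spots with Agilent Feature Extraction 10.7, as the submitters' processing notes name it. The deposited intensity values are processed signals, background-subtracted and detrended within each array and not normalized between arrays. The deposited series value table holds the same intensities rounded (ratio to the processed signal 0.995 to 1.005), with no centring. The methods name GeneSpring GX and, for tests, Student's t or an analysis of variance, and a normalization between arrays is not given in the sources used here.

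From these files, control spots and outlier spots were left out, spots of a probe were averaged, and log2 signals were set relative to the 75th percentile of each array. The 4 groups were fitted in limma 3.58.1 (R 4.3.3) over all 8 arrays with empirical Bayes moderation, two-sided tests and Benjamini-Hochberg adjustment over all tested probes. The fit was tested on simulated data with known changes. For a probe below background on every array of a group, an "at least" fold sets the brighter group's mean against the higher of the lowest level well above background and the probe's own level. A fitted change of such a probe is not a bound. The number of arrays limits the precision, and no spot was saturated.

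The members and lists were chosen with earlier results of these data known. 1 further list of cell type markers is not reported here. Named with values were the brightest probes of the 30 detected member genes with the largest fitted change of the combination, and, for most of those genes, their other probes. CTAGE1, CTAGE15P, MAGEA4, MAGEA8, TKTL1 and PLAC1 were named after their values were seen. Probe coordinates are hg19, as the files give them. Many probes match near-identical copies, which the array cannot separate, and copies are named by matching the accessions given for a probe to RefSeq genes. Promoter windows come from RefSeq (GRCh38.p14).

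Same-numbered arrays deviated together between the siUHRF1 groups, which share siRNAs (r = 0.33 over 19907 probes), and not between other groups (-0.05 to 0.07). Alternatives were scaling, background correction, filter, replicate block, test, siCONT averaging and leaving out each array.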

Additional observations from a re-analysis of the deposited data

Results flagged for a closer look

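For 7 member probes the effect of UHRF1 depletion under TSA differed from its effect under mock, by limma's interaction term. On the log2 scale this difference was 7.67 for SPANXA1, 5.55 for SPANXB2, 3.72 for PAGE4, 3.12 for MAGEA11, 2.59 for MAGEC1, and 1.75 and 2.99 for the CT45A1 probes. Adjusted p-values ran from 0.00537 for MAGEA11 to 0.0368 for MAGEC1. Of these, the brighter CT45A1 probe was above background in every group. The other probes were below background in siCONT with mock and after depletion alone, so their values depend on signals with no order. MAGEC1 missed the threshold with a replicate block (adjusted p = 0.052). With the siCONT arrays averaged, and with a block within each siRNA arm, no member passed the test. In the averaged fit 14 members had an unadjusted p under 0.05 and at least 2-fold, a count without the share of all probes beside it.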

How the results depend on the processing

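Members called higher numbered 6 with UHRF1 depletion, 5 with TSA, 24 with both, 22 with depletion under TSA, 15 with TSA after depletion and 7 for the interaction. With the siCONT arrays averaged depletion, TSA, depletion under TSA and the interaction became 1, 1, 7 and 0. Normexp background correction gave 3, 2, 9, 8 and 7 for all but the interaction. Testing only probes above background on all arrays left 0, 3, 2, 2, 1 and 1, from 14 member probes. With no filter on dim probes, depletion gave 3 and the interaction 2. The methods' t-test gave 5, 6, 21, 20 and 12 members unadjusted, and 0, 6, 12, 0 and 0 after Benjamini-Hochberg. Leaving out 1 array gave ranges of 1 to 6, 2 to 6, 20 to 24, 9 to 24, 12 to 20 and 1 to 12, where an arm left with 1 array is assumed to vary like the others. Without siCONT mock array 1 or 2, depletion alone gave 2 or 1, and the interaction 1 or 3. Without siCONT TSA array 1 or 2, depletion under TSA gave 11 or 9, the interaction 1, and TSA alone 2 without array 1 (3 without siCONT mock array 1). Without either siUHRF1 mock array, the interaction gave 12 or 11. The cause was not tested.

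A replicate block by the number in the labels gave 6, 5, 25, 23, 17 and 6. It gained MAGEB2 for the combination, depletion under TSA and TSA after depletion, and MAGEA9 for the last, and lost MAGEC1 for the interaction (adjusted p = 0.052). A block within each siRNA arm gave 4 with TSA, 19 with TSA after depletion and 0 for the interaction. Median scaling moved the median log2 change of all tested probes for the combination from -0.14 to -0.54, and scaling over detected probes moved it to 0.11. Over all probes the combination's calls were 3454 higher and 2620 lower, 2587 and 5610 with median scaling, and 4238 and 1639 with detected-probe scaling. Members called for depletion under TSA were 22 higher and 1 lower, and 21 and 4 with median scaling. With median scaling GAGE2B and GAGE7 passed the 2-fold minimum, as lower, with the combination. Counting spots positive and significant on both arrays in place of well above background gave 31, 41, 42 and 56 detected members in place of 16, 24, 19 and 41. Over single probes, 2554 values kept their side of the threshold, 265 lost a call, 51 gained one and 0 called values reversed, while 56 values that were not called changed sign.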
